A study of Mus musculus with 227 samples.

Results

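Expression of the core circadian clock genes Per1, Per2, Per3, Cry1, Cry2, Arntl, Nr1d1, Nr1d2, Dbp and Ciart was followed through a drug screen in mouse cortical cultures. The genes were taken as the rows of the deposited count table whose symbol equals one of these names, which gave 1 row for each name, and thus 10 of the 31689 genes in the table. The cultures were primary mixed cells from the cerebral cortex of embryonic day 16.5 F1 embryos (FVB/N mothers, C3B6F1 fathers), and all groups shared this origin, the Neurobasal and B27 medium and 21 days in vitro. Each of 218 drugs was applied for 8 h to a culture that gave 1 library, and 9 libraries came from cultures given vehicle (0.2% DMSO). No drug was repeated, so a single drug library has no replicate of its own, and the doses are not given in the sources used here. Nothing in the labels says whether the vehicle libraries came from separate dissections, so the p-values measure the spread between these libraries, which may be partly technical.

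The clock is a transcriptional feedback loop. The activator Arntl (BMAL1) pairs with CLOCK or NPAS2 and switches on genes with E-box motifs, among them the Per and Cry genes, whose proteins then repress it. CIART is a further repressor of the same pair. A linked loop uses Nr1d1 and Nr1d2 (REV-ERB alpha and beta), nuclear receptors that repress Arntl through ROR response elements, and DBP activates genes with D-box motifs, Per3 among them. Per1 and Per2 are also known as immediate response genes that glucocorticoids, cAMP and neuronal activity induce through other promoter elements. A culture with no timing cue holds cells whose clocks can run out of phase with each other, and these libraries were all taken at one time after treatment.

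The members lie on 8 mouse chromosomes (coordinates from GENCODE vM21, mm10). The repressors are Per1 (ENSMUSG00000020893.15, chromosome 11, 69095217 to 69109960, plus strand), Per2 (ENSMUSG00000055866.9, chromosome 1, 91415982 to 91459324, minus strand), Per3 (ENSMUSG00000028957.10, chromosome 4, 151003652 to 151044665, minus strand), Cry1 (ENSMUSG00000020038.9, chromosome 10, 85131700 to 85185064, minus strand), Cry2 (ENSMUSG00000068742.9, chromosome 2, 92403646 to 92434043, minus strand) and Ciart (ENSMUSG00000038550.8, chromosome 3, 95878503 to 95882251, minus strand). The activator Arntl (ENSMUSG00000055116.7) lies on chromosome 7, 113207465 to 113314126, on the plus strand. The second loop holds Nr1d1 (ENSMUSG00000020889.11, chromosome 11, 98767932 to 98775333, minus strand) and Nr1d2 (ENSMUSG00000021775.10, chromosome 14, 18204054 to 18239127, minus strand). The output factor Dbp (ENSMUSG00000059824.8) lies on chromosome 7, 45705088 to 45710203, on the plus strand. Exons of Nr1d1 share 263 bases with Thra on the opposite strand and those of Dbp share 539 bases with Sphk2. The library kit keeps strand, but whether the counting used it is not stated, so reads over these bases could belong to either gene.

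Promoters are shown for Ciart, which holds the most E-boxes of the members, Per3, which holds D-boxes, and Per1, which like Cry1 holds 2 kinds of motif, with each match in capitals. For Per1 the entry with both kinds is shown, and its other entry held no E-box. RefSeq entries (GRCm38.p6) were found for 9 of the 10 members, each 250 bases before to 50 after a start site, and the 250 bases before the start are printed 5′ to 3′. Both strands were searched for the E-box CACGTG, the D-box TTATGTAA, the cAMP response element TGACGTCA and its core TGACG, which it contains, and the ROR response core TAGGTCA.
Ciart, minus strand, chr3:95882229-95882478, with E-boxes in capitals: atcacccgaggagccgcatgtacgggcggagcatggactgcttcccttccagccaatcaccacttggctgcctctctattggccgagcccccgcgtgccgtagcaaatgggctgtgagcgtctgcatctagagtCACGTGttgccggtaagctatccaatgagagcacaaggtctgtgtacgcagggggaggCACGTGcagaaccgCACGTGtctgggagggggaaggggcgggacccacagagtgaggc
Per3, minus strand, chr4:151044666-151044915, with D-boxes in capitals: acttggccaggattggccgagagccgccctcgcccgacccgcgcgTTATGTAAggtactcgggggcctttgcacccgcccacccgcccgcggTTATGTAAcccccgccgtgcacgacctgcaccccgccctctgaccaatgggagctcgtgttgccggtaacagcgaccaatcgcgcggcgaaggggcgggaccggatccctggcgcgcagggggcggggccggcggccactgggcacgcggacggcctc
Per1, plus strand, chr11:69098699-69098948, with the cAMP response core and an E-box in capitals: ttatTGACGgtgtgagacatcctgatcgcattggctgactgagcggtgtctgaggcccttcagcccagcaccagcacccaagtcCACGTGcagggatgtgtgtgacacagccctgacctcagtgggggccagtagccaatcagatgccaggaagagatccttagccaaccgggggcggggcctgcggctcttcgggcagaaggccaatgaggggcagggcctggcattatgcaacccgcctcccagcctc

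The E-box was present in 7.15% of 32851 RefSeq promoters of this length, and among the members in Ciart (3 copies), Cry1 and Per1. The D-box was present in 0.938% of promoters and, among the members, in Per3 (2 copies). The full cAMP response element (1.79% of promoters) was in none of the 11 member entries, and its core (20.8%) was in both Per1 entries, Cry1 and Cry2. The ROR response core (2.61%) was in 1 of the Arntl entries, after the start site. These matches describe letters in a short window and not binding.

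Drug libraries held 22019878 to 65189712 counted reads and vehicle libraries 31401522 to 43766202. The least counted member was Ciart, with 59 to 1356 reads a library, and the others had at least 413. Of the marker lists, all 11 neuron genes, all 8 astrocyte genes, all 5 oligodendrocyte precursor genes and all 8 fibroblast and mural genes averaged at least 1 CPM (reads scaled to library size) in vehicle libraries. So did 5 of 7 oligodendrocyte genes (not Mog or Mobp), 2 of 8 microglia genes and 2 of 6 endothelial genes. Summed CPM was 5029 to 8667 in drug libraries and 6073 to 8134 in vehicle libraries for the neuron list, and 5746 to 9261 and 6320 to 8011 for the astrocyte list. In a mixed culture, fewer cells of a type and less RNA per cell cannot be told apart. Column names carry a run code and a second number, called the lane code here, neither of which the labels explain. The 9 run codes held 8 to 32 libraries, 3 of them without a vehicle, and run and lane codes together made 57 groups of 3 or 4 libraries.

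All 10 genes were detected in every vehicle culture. By deposited RPKM, which scales for gene length, the repressor Cry2 had the highest vehicle level at 31.2 ± 4.164 (SD, n = 9), with Nr1d1 at 29.7 ± 4.04 and Dbp at 24.9 ± 5.21. Per1 followed at 19.4 ± 7.19, Nr1d2 at 11.3 ± 2.49, Arntl at 9.71 ± 1.32 and Cry1 at 8.15 ± 1.43. Per2 (6.0996 ± 1.92), Per3 (5.09 ± 0.603) and Ciart (3.49 ± 1.36) were lowest. The ranges of every gene and the next in this order overlapped. Nr1d1 was above Dbp, and Cry1 above Per2, within each of the 9 libraries, whereas Per2 was above Per3 in 5 of them.

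The vehicle libraries differed among themselves in Per1, Per2 and Ciart more than in Per3, Nr1d1 or Arntl. Per1 was at 75.1, 67.95, 94.5, 71.9, 104.02, 153.4, 174.5, 170.3 and 79.7 CPM in vehicles 1 to 9, an SD of 39.7% of the mean, against 9.13% for Per3. Vehicles 6, 7 and 8 were high and the other libraries lay at 104.02 or lower. Vehicles 8 and 9 carried the same run code and stood at 170.3 and 79.7. Per2 was at 25.7, 23.9, 33.6, 21.6, 39.6, 51.6, 48.7, 49.9 and 27.9 CPM in the same order, again high in vehicles 6, 7 and 8, while Nr1d2, at 63.03, 67.4, 59.3, 58.8, 50.2, 43.8, 40.7, 38.6 and 52.4 CPM, was lowest in those 3 libraries.

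Every member differed between run codes (edgeR quasi-likelihood test, adjusted p = 1.99e-26 for Arntl to 0.0183 for Cry1), but so did 91.5% of all genes tested. The test took the libraries of a run code as independent. Lane code groups within run codes differed as well, so these p-values may be too small. Arntl had the lowest p of the members, Dbp ranked 1096 among 15474 genes and Cry1 13724. Run code HI.3145 had the highest median of the activator Arntl (34.2 CPM) and the lowest of Dbp (35.4 CPM), Per2 (20.2 CPM), Cry2 (110.03 CPM) and Ciart (3.23 CPM). HI.3145 was also lowest for Per3 (29.4 CPM) and Nr1d1 (75.7 CPM). Run code HI.3122 had the lowest Arntl (21.6 CPM) and the highest Dbp (61.9 CPM), Per3 (36.7 CPM) and Nr1d1 (99.1 CPM). Run code HI.3254 was highest for Per1 (122.7 CPM), Per2 (40.1 CPM), Cry1 (27.1 CPM), Cry2 (147.3 CPM) and Ciart (9.07 CPM). The ratio of the highest to the lowest run-code median was 2.806 for Ciart, 1.99 for Per2, 1.79 for Per1, 1.75 for Dbp and 1.59 for Arntl, and from 1.2501 to 1.339 for the other 5. Run code took up 7.77% (Cry1) to 48.2% (Arntl) of the variance of log2 CPM, and run and lane code together 50.9% to 75.3%. These shares are not adjusted for the number of groups. In values unrelated to the codes, the grouping alone would take up on average 8/226 and 56/226 of the variance. Run codes held different drugs, so run code and the drugs in it cannot be told apart in these medians.

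**Figure D1:**
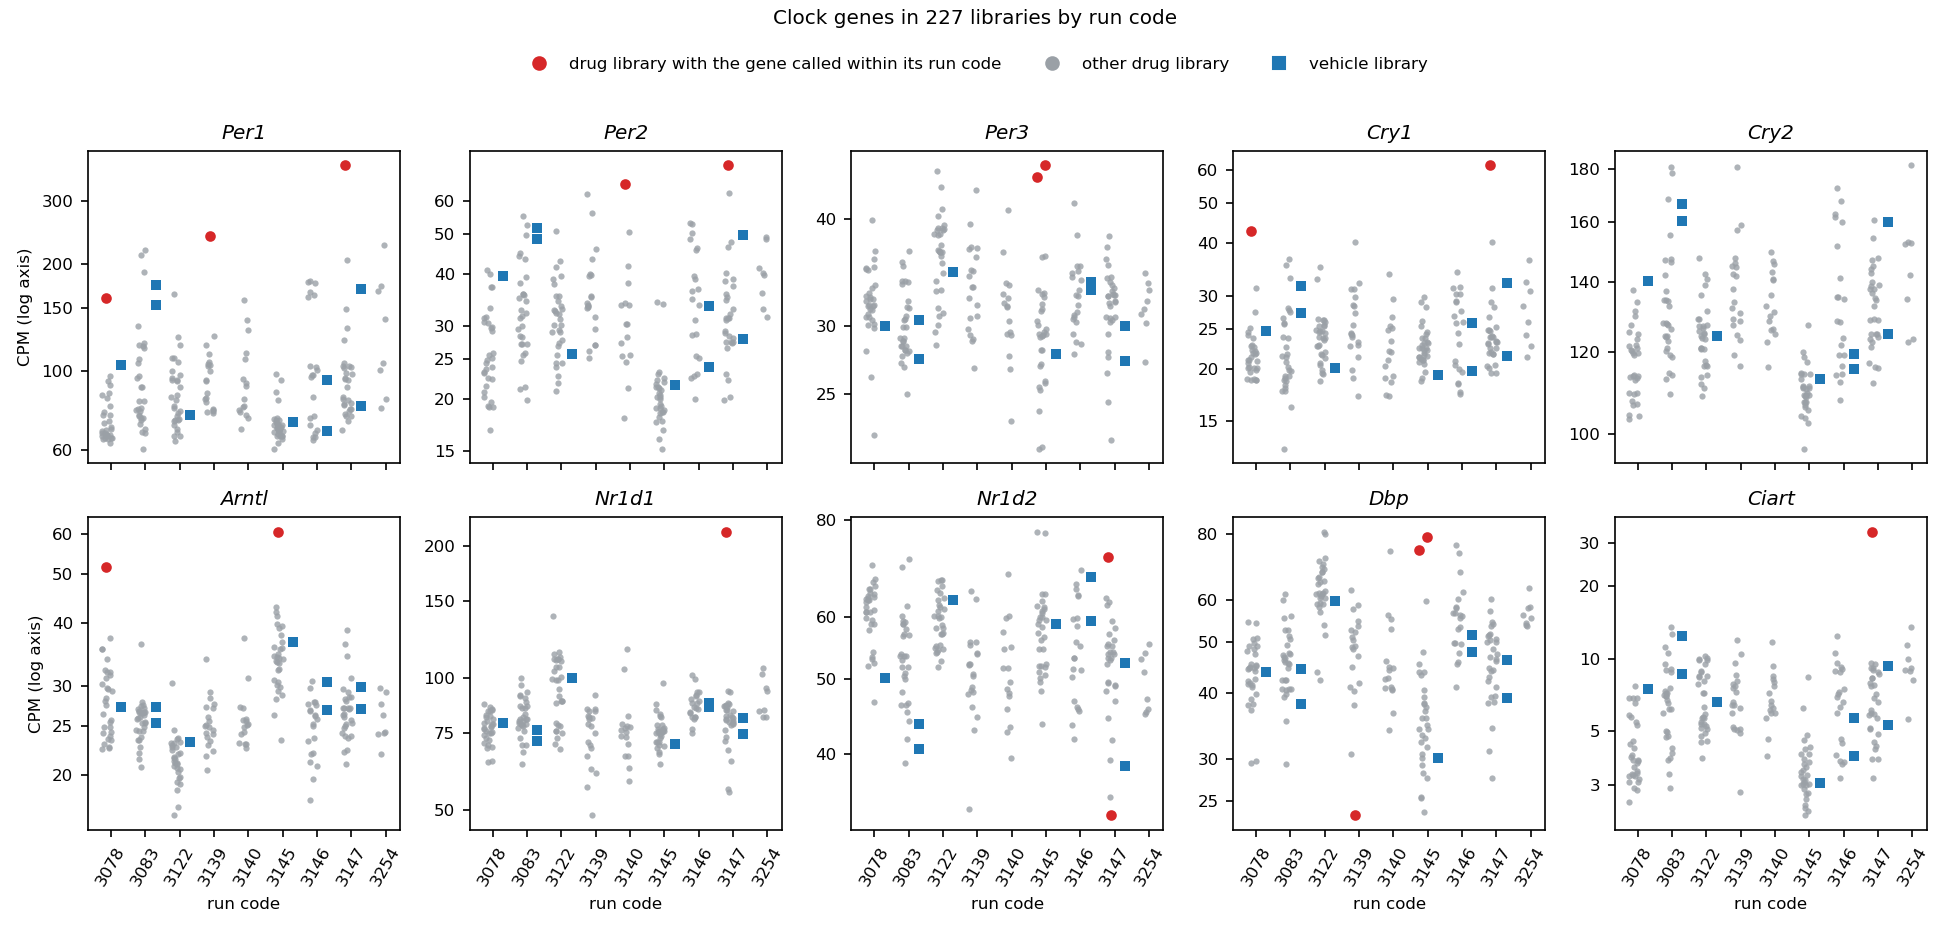
Level of each clock gene (CPM, log axis) in all libraries by run code; grey points are drug libraries, red points drug libraries with that gene called within the run code, and blue squares vehicle libraries. Run code HI.3145 sits highest for Arntl and lowest for Dbp, Cry2 and Ciart, and the Fenofibrate library is the highest point for Per1 (378 CPM), Cry1 (61.5 CPM), Nr1d1 (216 CPM) and Ciart (33.6 CPM).

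Each drug library was set against the 9 vehicles and, because levels moved with run code, also against all other libraries of its own run code. The second comparison takes its spread from all libraries. Among 2180 gene and drug combinations, 6 passed against vehicle, all higher in the drug library, where 0.12% of all genes and drugs tested passed (0.0674% higher). Within run codes 18 passed, 16 higher and 2 lower, with 0.464% passing over all genes and drugs (0.269% higher and 0.194% lower). The 18 included the 6. At unadjusted p under 0.05 there were 5.92% of the combinations against vehicle and 5.41% within run codes. No member passed when each vehicle library was set against the rest of its run code (0 of 90 in edgeR and in limma, 4 and 5 at unadjusted p under 0.05), where 0.00718% of all tests passed. The 18 fell in 9 drugs, and Cry2 was the one member with no call in either comparison.

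**Figure D2:**
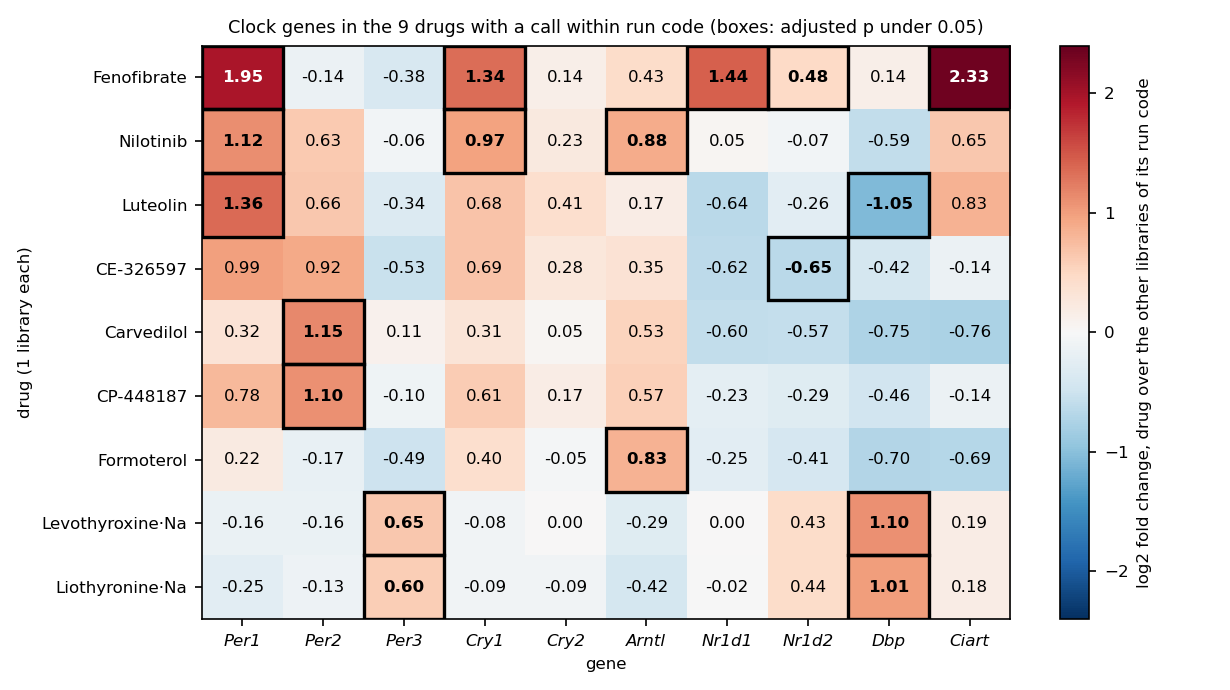
Log2 fold change of each clock gene in the 9 drug libraries with a call, over the other libraries of the same run code; black boxes mark edgeR adjusted p under 0.05. Fenofibrate has boxes at Per1, Cry1, Nr1d1, Nr1d2 and Ciart, and the thyroid hormones at Per3 and Dbp.

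Fenofibrate, a lipid-lowering drug that activates the nuclear receptor PPAR alpha, came with higher repressor genes of both loops. Within its run code 5 of the 10 members rose and none fell, where 27.9% of all genes were called (14.7% higher), so the share of members was larger than the background of this widely active library. Nr1d1 was at 216 CPM in the Fenofibrate library, against 54.97 to 93.6 CPM (median 81.3) in the 31 other libraries of the run code and 70.8 to 100.2 CPM in the 9 vehicles. It stood above every other library of the screen. The log2 fold change was 1.44 ± 0.15 (SE) within the run code (edgeR, adjusted p = 3.59e-16) and 1.41 ± 0.14 against vehicle (adjusted p = 0.000188). Thra, which overlaps Nr1d1 on the other strand, was at 838 CPM in the Fenofibrate library and at a median of 933 CPM in the other libraries of the run code.

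Ciart was at 33.6 CPM with Fenofibrate, against 3.21 to 9.56 CPM (median 6.62) in the rest of the run code and 3.07 to 12.4 CPM in vehicles. No other library exceeded 13.6 CPM. Its log2 fold change was 2.33 ± 0.34 within the run code (edgeR, adjusted p = 5.77e-09). Per1 was at 378 CPM, against 67.99 to 205 CPM (median 90.1) in the rest of the run code and 67.95 to 174.5 CPM in vehicles, a log2 fold change of 1.95 ± 0.32 (adjusted p = 1.62e-07). Cry1, a strong repressor of the BMAL1 pair, was at 61.5 CPM, against 19.6 to 40.4 CPM (median 23.3) and 19.4 to 32.1 CPM, a log2 fold change of 1.341 ± 0.22 (adjusted p = 2.51e-07). None of these 3 genes overlapped any other library of the run code. Per1, Cry1 and Ciart also passed against vehicle (adjusted p = 0.0269, 0.00652 and 0.0103), which with Nr1d1 made 4 of 10, where 10.6% of all genes were called. The 3 libraries that shared the lane code of Fenofibrate had Per1 at 102.4 to 105.2 CPM and Ciart at 7.68 to 8.80 CPM.

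The rise did not take in the whole set. Nr1d2 was at 71.5 CPM with Fenofibrate, against 33.4 to 63.4 CPM (median 53.1) in the rest of the run code, a smaller difference of 0.48 ± 0.17 on the log2 scale (edgeR, adjusted p = 0.0270) that did not pass against vehicle (adjusted p = 0.323). Per2, the closest relative of Per1, was at 31.1 CPM against a run-code median of 31.4 CPM, Cry2 at 147.1 CPM against 132.97 CPM, and Dbp at 50.3 CPM against 46.2 CPM, none of them called. Per3 was at 24.4 CPM against 32.1 CPM (log2 fold change -0.38 ± 0.18, adjusted p = 0.100). Arntl was at 36.3 CPM against 27.03 CPM (0.43 ± 0.19, adjusted p = 0.0826), and passed with the lane code as block (0.57 ± 0.17, adjusted p = 0.00444).

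Of 23 other clock genes, 9 rose and 1 fell with Fenofibrate within the run code, where 14.7% of all genes rose. Among them were the E-box repressors Bhlhe40 (DEC1; 155.4 CPM against a run-code median of 53.3 CPM, log2 fold change 1.505 ± 0.29) and Bhlhe41 (DEC2; 77.97 CPM against 38.4 CPM, 1.04 ± 0.10). The deubiquitinase gene Usp2, a known clock output, was at 145.5 CPM against 65.5 CPM (1.122 ± 0.13), and Klf10, a clock-linked transcription factor, at 64.1 CPM against 24.1 CPM (1.33 ± 0.30). Rorb, which competes with the REV-ERB proteins for the same elements, was at 97.2 CPM against 48.9 CPM (0.93 ± 0.22). The kinase genes Csnk1d (0.14) and Csnk1e (0.29) and the ubiquitin ligase gene Fbxw11 (0.34) rose less, and its relative Btrc fell by 0.31. The median log2 fold change was 0.46 over the 10 members, 0.16 over the 23 other clock genes and 0.01 over all genes.

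With the other fibrates no member was called within their run codes. Of 15474 genes, 632 were called with Ciprofibrate, 8 with Clofibrate, 2 with Gemfibrozil and 0 with Bezafibrate. The lack of member calls is therefore near the share of all genes in these libraries. Per1 was at 100.8 CPM with Gemfibrozil, 83.4 CPM with Bezafibrate, 139.1 CPM with Clofibrate and 94.9 CPM with Ciprofibrate, with run-code medians of 95.2, 90.7, 83.4 and 83.4 CPM. Nr1d1 was at 93.2, 75.3, 62.6 and 105.2 CPM in the same drugs, with run-code medians of 86.03, 76.1, 76.1 and 75.3 CPM. Ciart lay between 6.69 and 7.71 CPM in all of these. With the lane code as block, Ciprofibrate passed for Nr1d1 (0.62 ± 0.19, adjusted p = 0.0213) and for a lower Per2 (-1.27 ± 0.37, adjusted p = 0.0196), where 8.36% of all genes were called. Doses are not known and the run codes differ, which limits what these values say of one fibrate against another. Taken as 5 replicates against vehicle, the fibrates gave 0 members in edgeR and in DESeq2 (0 and 2 at unadjusted p under 0.05), and 0% of all genes passed in edgeR. With a run-code term in limma, Per1, Cry1, Nr1d1 and Ciart passed (log2 fold changes 0.55 ± 0.19, 0.41 ± 0.13, 0.38 ± 0.09 and 0.65 ± 0.23), where 13.3% of all genes did. The Fenofibrate library was far above the rest in that class: the within-run log2 fold change of Per1 was 1.95 with Fenofibrate and -0.22 to 0.57 with the others, that of Ciart 2.33 and -0.08 to 0.17, that of Cry1 1.341 and -0.05 to 0.24, and that of Nr1d1 1.44 and -0.32 to 0.48.

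Marker values moved with the Fenofibrate library. Scores were the mean log2 CPM of the list genes that averaged at least 1 CPM over all libraries, minus the run-code median. The neuron score of this library was -0.49, within the range of the other libraries (-0.55 to 0.29), and its astrocyte score was 0.42 (range of the others -0.34 to 0.67). The score of 10 cAMP response genes was 1.02, above all others of the run code (-0.25 to 0.91). That of the glucocorticoid response list was 0.63 (-0.11 to 0.90). Of its 12 genes, 10 averaged at least 1 CPM in vehicle libraries. The part of cell makeup and of these responses in the clock gene values was not tested.

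With Nilotinib, a tyrosine kinase inhibitor, the activator Arntl rose together with Per1 and Cry1. Arntl was at 51.7 CPM in the Nilotinib library, against 22.6 to 37.5 CPM (median 27.5) in the rest of its run code and 23.3 to 36.7 CPM in vehicles, a log2 fold change of 0.88 ± 0.18 within the run code (edgeR, adjusted p = 2.97e-05) and 0.86 ± 0.17 against vehicle (adjusted p = 0.0120). Cry1 was at 42.9 CPM, against 18.8 to 31.3 CPM (median 21.4) in the run code and 19.4 to 32.1 CPM in vehicles (0.97 ± 0.24 within the run code, adjusted p = 0.00132). Neither gene overlapped the rest of the run code or the vehicles. Per1 was at 159.9 CPM, against 62.8 to 104.02 CPM (median 68.1) in the run code (1.121 ± 0.38, adjusted p = 0.0205), but vehicles 7 and 8, from other run codes, were higher still. These were 3 of 10 members, where 21.4% of all genes were called (12.2% against vehicle, where Arntl alone passed). In both comparisons the share of members was near that of all genes, so these counts are not particular to clock genes. Dbp was at 29.5 CPM against a run-code median of 44.6 CPM, a difference of -0.59 ± 0.28 that did not pass (adjusted p = 0.127).

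With the lane code as block, Per2 (0.97 ± 0.33), Cry2 (0.39 ± 0.12) and Ciart (1.201 ± 0.42) passed with Nilotinib as well (edgeR, adjusted p = 0.0306, 0.0104 and 0.0328), which made 6 of 10, where 15.6% of all genes were called. In this setting Arntl fell from 0.88 to 0.60 ± 0.17, while Cry1 was at 0.85 ± 0.24 and Per1 at 1.27 ± 0.34. The libraries that shared the lane code had Arntl at 31.2 to 35.5 CPM, above the run-code median of 27.5 CPM.

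Among the other clock genes, 3 of 23 rose with Nilotinib and none fell, a share near that of all genes, of which 1701 of 15474 rose. Nfil3, which represses through the D-box that DBP activates, was at 68.996 CPM against a run-code median of 13.2 CPM (2.31 ± 0.45, edgeR, adjusted p = 2.31e-05). Csnk1d (0.33) and Fbxw11 (0.19) rose less. The summed neuron markers of this library, 5029 CPM, were the lowest of the screen, and its scores of activity-regulated genes (2.097) and cAMP response genes (1.06) were above the rest of its run code (up to 1.5102 and 0.57). The glucocorticoid response score was 0.58 (others up to 0.21) and the microglia score -0.52 (others -0.34 or higher). The microglia score rests on few genes near the floor. Of the 8 on its list 2 averaged at least 1 CPM in vehicle libraries, and their sum had a median of 5.37 CPM in drug libraries. The part of these markers and scores in the result was not tested.

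With Formoterol, an agonist of the beta-2 adrenergic receptor, Arntl reached the highest level of the screen. Arntl was at 60.8 CPM in the Formoterol library, against 23.5 to 43.1 CPM (median 34.1) in its run code, HI.3145, which has the highest Arntl of all run codes, and 23.3 to 36.7 CPM in vehicles. The log2 fold change was 0.83 ± 0.18 within the run code (edgeR, adjusted p = 0.00189) and 1.097 ± 0.17 against vehicle (adjusted p = 0.0302). The call against vehicle was lost when vehicle 5, 6, 7 or 9 was left out (adjusted p = 0.0550 to 0.0693). It was 1 of 10 members, where 0.691% of all genes rose within the run code and 0.259% passed against vehicle. Of the other clock genes only Rorb, an activator of Arntl, rose (138.9 CPM against a run-code median of 61.1 CPM, 1.159 ± 0.21, adjusted p = 5.16e-05). Dbp at 23.8 CPM, against a run-code median of 35.9 CPM, and Ciart at 2.24 CPM, against 3.2797 CPM, were low without passing within the run code (adjusted p = 0.401 and 0.711). Against vehicle, DESeq2 called the lower Dbp (-0.91 ± 0.28, adjusted p = 0.0306) and a lower Per3 (-0.51 ± 0.15, 0.0279). The cAMP response score of this library was 0.20, inside the range of its run code (-0.31 to 0.46).

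Dbp and Per3 rose with the thyroid hormones Levothyroxine·Na and Liothyronine·Na, a ligand precursor and a ligand of the nuclear thyroid receptors. Dbp was at 78.9 CPM with Levothyroxine·Na and 74.5 CPM with Liothyronine·Na, against a median of 34.9 CPM in the rest of the run code and 30.2 to 59.8 CPM in vehicles. The log2 fold changes within the run code were 1.095 ± 0.23 and 1.01 ± 0.23 (edgeR, adjusted p = 0.00103 and 0.00560). Per3 was at 46.3 and 44.8 CPM, against a median of 29.3 CPM in the rest of the run code and 27.3 to 34.7 CPM in vehicles, with log2 fold changes of 0.65 ± 0.16 and 0.60 ± 0.16 (adjusted p = 0.0104 and 0.0294). The hormone libraries were the highest of their run code for both genes and did not overlap the vehicles. These were 2 of 10 members in each, where 0.679% and 0.672% of all genes rose.

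Nr1d2 was at 76.98 and 77.2 CPM with the 2 hormones, the highest levels of the screen, against a run-code median of 58.2 CPM, but did not pass (adjusted p = 0.617 and 0.579). Nr1d1 was at 75.8 and 74.9 CPM against medians of 75.6 and 75.8 CPM. The 2 hormone libraries shared a lane code with 2 others, Mirtazapine and Modafinil, which had Dbp at 40.6 and 38.3 CPM and Per3 at 29.2 and 28.1 CPM. With the lane code as block each hormone is part of the reference of the other, and neither gene passed in either library (adjusted p = 0.69 or above). As a class of 2 against vehicle, Per3 passed (0.57 ± 0.09, edgeR, adjusted p = 0.0105; 1.3% of all genes passed) and Dbp did not (adjusted p = 0.0577). Per3 was lost without either hormone (adjusted p = 0.200 and 0.187), and Dbp passed when vehicle 1, 2 or 4 was left out. With a run-code term in limma, Dbp (1.132 ± 0.18), Per3 (0.66 ± 0.12) and Nr1d2 (0.46 ± 0.13) passed, where 2.39% of all genes did. None of 23 other clock genes was called in the class or in either library.

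Luteolin, a plant flavonoid, gave the lowest Dbp and the lowest Nr1d1 of the screen together with a high Per1. Dbp was at 23.5 CPM in the Luteolin library, against 30.7 to 62.8 CPM (median 49.2) in its run code and 30.2 to 59.8 CPM in vehicles, a log2 fold change of -1.05 ± 0.30 (edgeR, adjusted p = 0.0143). Per1 was at 239.7 CPM, against 75.9 to 125.6 CPM (median 93.9), a log2 fold change of 1.36 ± 0.37 (adjusted p = 0.0110). With the lane code as block the Per1 call was lost (adjusted p = 0.0550). Nr1d1 was at 48.7 CPM against a run-code median of 78.8 CPM (-0.64 ± 0.23, adjusted p = 0.0587), a difference that passed in limma (adjusted p = 0.0295), in DESeq2 against vehicle (0.00594) and in edgeR with libraries of over 1000 calls kept out of the reference (0.0167). Neither called gene overlapped the rest of the run code, which held no vehicle. These were 2 of 10 members, where 7.21% of all genes were called. Rorb (1.151 ± 0.22), Nfil3 (1.67 ± 0.52) and Usp2 (0.65 ± 0.16) rose, and Timeless (-0.69 ± 0.19) and the cell-cycle kinase gene Wee1 (-0.43 ± 0.13) fell. The summed neuron markers of this library were the highest of the screen, at 8667 CPM, its astrocyte score was -0.44 (others -0.39 to 0.65), and its activity-regulated score was 1.84 (others up to 1.506). The cAMP response score was 0.92 (others up to 0.31) and the oligodendrocyte score -0.56 (others -0.49 or higher). Their part was not tested.

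A further 3 drugs had 1 call each within run codes. Carvedilol, a beta blocker that also blocks alpha-1 receptors, had Per2 at 73.4 CPM, the highest of the screen, against 19.9 to 63.001 CPM (median 31.4) in its run code and 21.6 to 51.6 CPM in vehicles (1.154 ± 0.32, edgeR, adjusted p = 0.0386; 0.911% of all genes rose). CP-448187, known here only by its code, had Per2 at 66.01 CPM, against 18.01 to 50.6 CPM (median 30.3) (1.095 ± 0.33, adjusted p = 0.0390; 2.38% of all genes rose). Both calls were lost in limma (adjusted p = 0.0776 and 0.0550) and held with the lane code as block (0.00462 and 0.00526), where a lower Nr1d2 with Carvedilol (-0.62 ± 0.16, 0.0215) and Arntl with CP-448187 (0.57 ± 0.17, 0.0222) passed too. CE-326597, also a code name, had the lowest Nr1d2 of the screen, 33.4 CPM, against 35.3 to 71.5 CPM (median 53.2) in its run code and 38.6 to 67.4 CPM in vehicles (-0.65 ± 0.20, adjusted p = 0.0346; 1.3% of all genes fell). The 3 libraries that shared its lane code, vehicle 8 among them, were also low, at 38.6 to 41.7 CPM, and with the lane code as block the difference was -0.27 (adjusted p = 0.738). In this library Nfil3 was at 64.7 CPM against 15.5 CPM (1.87 ± 0.49) and Csnk1d rose by 0.18. The activity-regulated scores of these drugs were 1.53, 2.08 and 2.29, in the order Carvedilol, CP-448187 and CE-326597, the last 2 above the rest of their run codes (up to 1.65 and 1.87).

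Drug classes with known routes to clock genes gave few further calls. In the 5 benzodiazepines, which enhance inhibition at the GABA-A receptor, Per2 was at 15.2 CPM with Clonazepam, 25.2 CPM with Lorazepam, 16.9 CPM with Oxazepam, 21.1 CPM with Temazepam and 19.9 CPM with Triazolam. The medians of their run codes were 20.2, 34.2, 25.1, 32.8 and 32.8 CPM, so each was below its own. As a class against vehicle Per2 fell (-0.87 ± 0.23, edgeR, adjusted p = 0.0492), the 1 member called, where 3.86% of all genes were. This call was lost without any 1 of the 5 drugs (adjusted p = 0.0727 to 0.124) and without vehicle 3, 5, 6, 7, 8 or 9 (0.0521 to 0.0843). Per3 stood at 0.24 ± 0.07 (adjusted p = 0.0601) and Cry1 at -0.46 ± 0.15 (0.103). With a run-code term in limma, Per2 (-0.62 ± 0.16), Cry1 (-0.40 ± 0.12), Per3 (0.22 ± 0.08) and Nr1d2 (0.32 ± 0.08) passed, where 12.1% of all genes did. Temazepam had the lowest Cry1 of the screen, 12.9 CPM. Of the other clock genes the D-box factor Tef rose (0.49 ± 0.07, edgeR, adjusted p = 0.00300), and Npas2, the partner of BMAL1 (-0.54 ± 0.12, 0.0295), and Usp2 (-0.39 ± 0.07, 0.0135) fell. Activity-regulated scores, centred on the run-code mean, were -0.75, -1.59, -1.06, -1.51 and -1.94 in the same drug order, and Triazolam, Lorazepam and Temazepam held the 3 lowest values of the screen.

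Glucocorticoids and methylxanthines gave 0 members against vehicle, where 0.0134% and 0% of all genes passed (edgeR; 0 and 1 member at unadjusted p under 0.05). DESeq2 and limma with a run-code term called none either (0 and 1 at unadjusted p in DESeq2, 0 and 2 in limma, where 1.07% and 0.0969% of all genes passed). The libraries of each class differed. Per1 was at 164.1 CPM with Dexamethasone, 121.9 CPM with Betamethasone and 83.8 CPM with Cortisone Acetate, with run-code medians of 79.9, 90.1 and 94.1 CPM. It was at 218 CPM with Theophylline, 94.3 CPM with Aminophylline and 77.8 CPM with Oxtriphylline, with run-code medians of 82.2, 79.9 and 90.7 CPM. The libraries that shared the lane code of Theophylline included vehicle 7 at 174.5 CPM and Sulfamethoxazole at 189.9 CPM, and vehicle 6 of the same run code was at 153.4 CPM. Theophylline had the third highest Per1 relative to its run code and Aminophylline the third highest Nr1d1 (138.5 CPM against 99.1 CPM), neither of them called within run codes (edgeR, adjusted p = 0.260 and 0.0910). Nr1d1 with Aminophylline passed in DESeq2 against vehicle (0.78 ± 0.17, adjusted p = 0.00124) and in edgeR with libraries of over 1000 calls kept out of the reference (0.0188).

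Apart from the called drugs, Diflunisal, an anti-inflammatory salicylate derivative, was among the 3 highest drugs relative to the run-code median for Nr1d1 (116.3 CPM against a run-code median of 75.3 CPM), Nr1d2 (68.1 against 49.5 CPM) and Dbp (74.2 against 42.7 CPM), with adjusted p of 0.129 to 0.318 (edgeR). Ciart was high with Cyproheptadine·HCl Sesquihydrate (8.37 against 3.18 CPM, adjusted p = 0.145) and low with Ursodiol (2.90 against 7.02 CPM, 0.0900) and Duloxetine·HCl (2.79 against 6.63 CPM, 0.153). For Cry2 the 3 highest relative to the run-code median were Sulfamethoxazole (180.9 CPM), Theophylline (178.5 CPM) and Doxycycline Monohydrate (172.4 CPM), against run-code medians of 127.9, 127.9 and 126.01 CPM. Cyproheptadine·HCl Sesquihydrate and Letrozole had the lowest Arntl relative to their run codes, at 23.5 against 34.3 CPM and 17.8 against 26.2 CPM. None of these passed in the edgeR comparison within run codes, and Nr1d1 with Diflunisal passed when libraries of over 1000 calls were kept out of the reference (adjusted p = 0.0255).

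The members fell into groups that varied together over all libraries. After each library's log2 CPM was centred on the mean of its run code, 37 of the 45 pairs of members were correlated (permutation within run codes, two-sided, adjusted over 45 pairs), 19 positively and 18 negatively. The points of a pair share a library, its depth and its scaling. The share of correlated pairs among other genes was not measured, so 37 of 45 cannot be read as particular to clock genes. Genes outside the set also correlated strongly with members, such as Dusp1 with Per1 at 0.93. Among the repressor genes, Per1, Per2, Cry1, Cry2 and Ciart correlated positively with one another in all 10 of their pairs. Per3, also a repressor gene, went the other way. Its r was -0.28 with Per1, -0.21 with Per2, -0.27 with Cry1, -0.19 with Cry2 and -0.13 with Ciart, the last of which did not pass. Per1 correlated with Cry2 at r = 0.85 (rho = 0.86), with Cry1 at r = 0.84 (rho = 0.79) and with Per2 at r = 0.78 (rho = 0.82), each with a permutation p of 1e-05, the smallest that 100000 resamples can give (adjusted 1.67e-05). Each of these 3 pairs was positive within all 9 run codes. Without the 2 libraries farthest from the median, r was 0.87, 0.82 and 0.83.

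A second group held Dbp, Per3, Nr1d1 and Nr1d2. Per3 correlated with Dbp at r = 0.66 (rho = 0.58, permutation p = 1e-05, adjusted 1.67e-05), positively within all 9 run codes (0.16 to 0.93) and at 0.70 without centring. Dbp correlated with Nr1d2 at 0.56 and with Nr1d1 at 0.51, whereas Per3 and Nr1d1 were at 0.13, which did not pass (adjusted permutation p = 0.052). Within run codes, Dbp with Nr1d2 ranged from -0.41 to 0.88 (positive in 7 of 9) and Dbp with Nr1d1 from -0.17 to 0.93 (8 of 9). Nr1d1 with Nr1d2, at 0.46, ranged from -0.18 to 0.85 (7 of 9), so this group did not hold in every run code. The activator Arntl ran against Dbp, at r = -0.64 (rho = -0.58, permutation p = 1e-05, adjusted 1.67e-05), negatively within all 9 run codes (-0.76 to -0.28) and at -0.77 without centring. Its relation to Nr1d1, the repressor of Arntl, was weak (r = -0.15, rho = -0.18, adjusted permutation p = 0.0252) and did not pass when centred on run and lane code (adjusted p = 0.209). Without the 2 farthest libraries r was 0.61 for Per3 with Dbp and -0.62 for Arntl with Dbp. Centring on run and lane code gave 0.61 and -0.62.

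**Figure D3:**
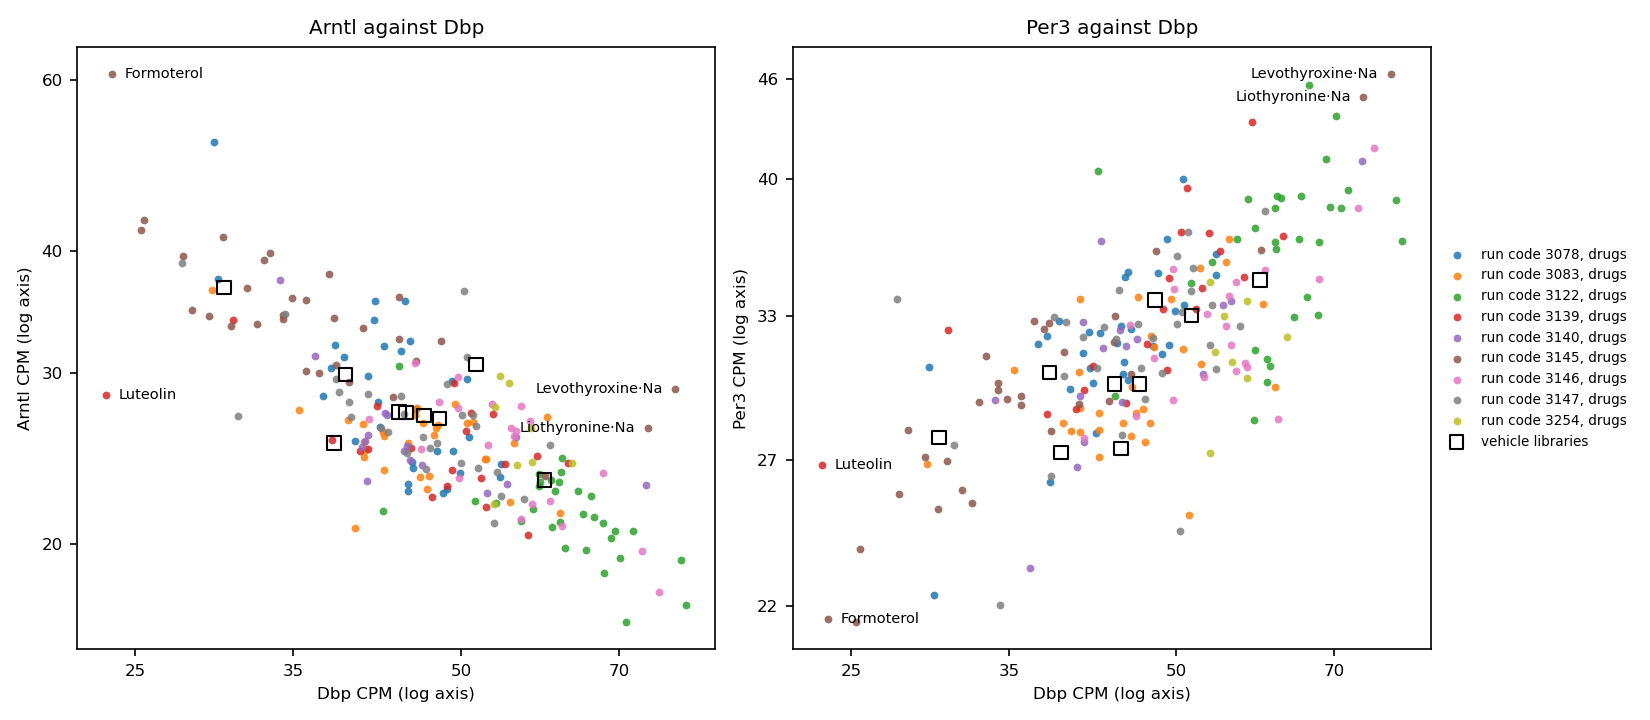
Arntl (left) and Per3 (right) against Dbp in all libraries, in CPM on log axes; points are drug libraries coloured by run code and open squares are vehicle libraries. Arntl falls and Per3 rises with Dbp across and within run codes; Formoterol and Luteolin have the lowest Dbp, and the thyroid hormones are at the high end of Per3 and Dbp.

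The 2 groups were opposed most strongly through Nr1d2. More weakly, Per3 was negative with the first group, as given above. Dbp was negative with Per1 (-0.19), Per2 (-0.29) and Cry1 (-0.27), and did not pass with Cry2 (-0.07) or Ciart (0.10). Per2 and Nr1d2 correlated at r = -0.77 (rho = -0.76, permutation p = 1e-05, adjusted 1.67e-05), the strongest negative relation of the 45, and at -0.73 without centring. Within run codes it was -0.92 to 0.02, near 0 in 1 of the 9. Nr1d2 was also negative with Ciart (-0.37), a relation that did not pass when centred on run and lane code (-0.15, adjusted permutation p = 0.107). With Per1 (-0.59), Cry1 (-0.57) and Cry2 (-0.61) Nr1d2 was negative as well. Nr1d1, its paralog, had relations near 0 with these 3 (0.01 with Per1, -0.08 with Cry1 and -0.04 with Cry2), but was negative with Per2 (-0.31, adjusted permutation p = 4.66e-05) and positive with Ciart (0.24, 0.00233). Without the 2 farthest libraries the values were -0.13 for Per1, -0.29 for Cry1, -0.07 for Cry2, -0.27 for Per2 and 0.09 for Ciart, so the relations of Nr1d1 to Cry1 and Ciart rest on which libraries are included. Per1 and Arntl were at 0.22 after centring on run code, at -0.03 without centring and at 0.43 after centring on run and lane code.

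**Figure D4:**
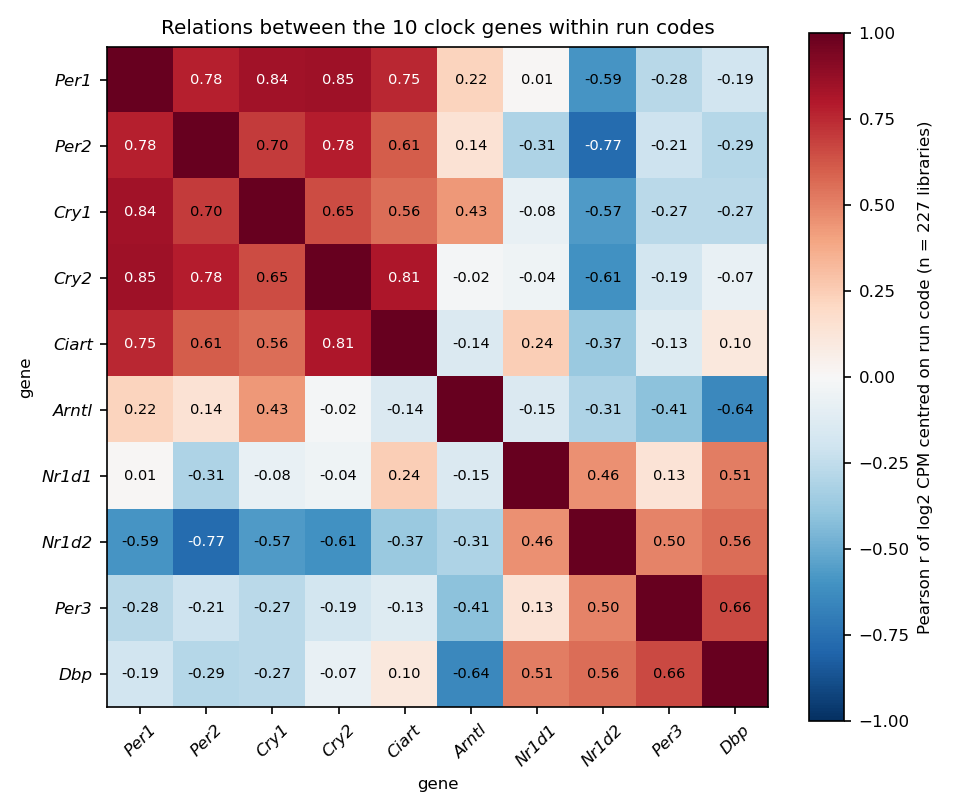
Pearson r of run-centred log2 CPM between the 10 clock genes over all libraries, from -1 (blue) to 1 (red). Per1, Per2, Cry1, Cry2 and Ciart form a red block (0.56 to 0.85), Dbp, Per3, Nr1d2 and Nr1d1 a paler one, and Nr1d2 is blue against the first block.

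Because Per1 and Per2 respond to neuronal activity, each member was also set against the mean of 20 activity-regulated genes (Fos, Npas4, Arc, Bdnf and the like), a relation chosen after the data had been seen. Run-centred r over all libraries was 0.89 for Per2 (rho = 0.87), 0.82 for Per1 (rho = 0.80), 0.75 for Cry2 (rho = 0.73), 0.72 for Cry1 (rho = 0.66) and 0.60 for Ciart (rho = 0.65). It was -0.79 for Nr1d2 (rho = -0.80), -0.36 for Per3 (rho = -0.33) and -0.35 for Dbp (rho = -0.28). For these 8 genes the permutation p was 1e-05 (adjusted over 10 genes 1.25e-05), and for Arntl (0.22) and Nr1d1 (-0.22) adjusted p was 0.000667 and 0.00105. This relation was not centred on lane code, so libraries that share a lane code count as independent in these p-values. Per1 and Per2 were positive, and Nr1d2 negative, within all 9 run codes (0.63 to 0.97, 0.69 to 0.96 and -0.90 to -0.34). Without the 2 farthest libraries r was 0.81 for Per1, 0.88 for Per2 and -0.79 for Nr1d2.

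The vehicle libraries took part in this relation. Vehicles 5, 6, 7 and 8 had run-centred activity scores of 1.1596, 1.098, 1.08 and 1.57 and were the highest vehicles for Per1 and Per2, whereas vehicles 1, 2, 3, 4 and 9 lay between -1.24 and 0.01. Summed CPM of the 20 genes was 283 to 2804 in drug libraries and 402 to 2011 in vehicle libraries. Fenofibrate, at a score of 0.76, had a run-centred Per1 of 1.94, Nr1d2 of 0.48 and Per2 of -0.07.

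**Figure D5:**
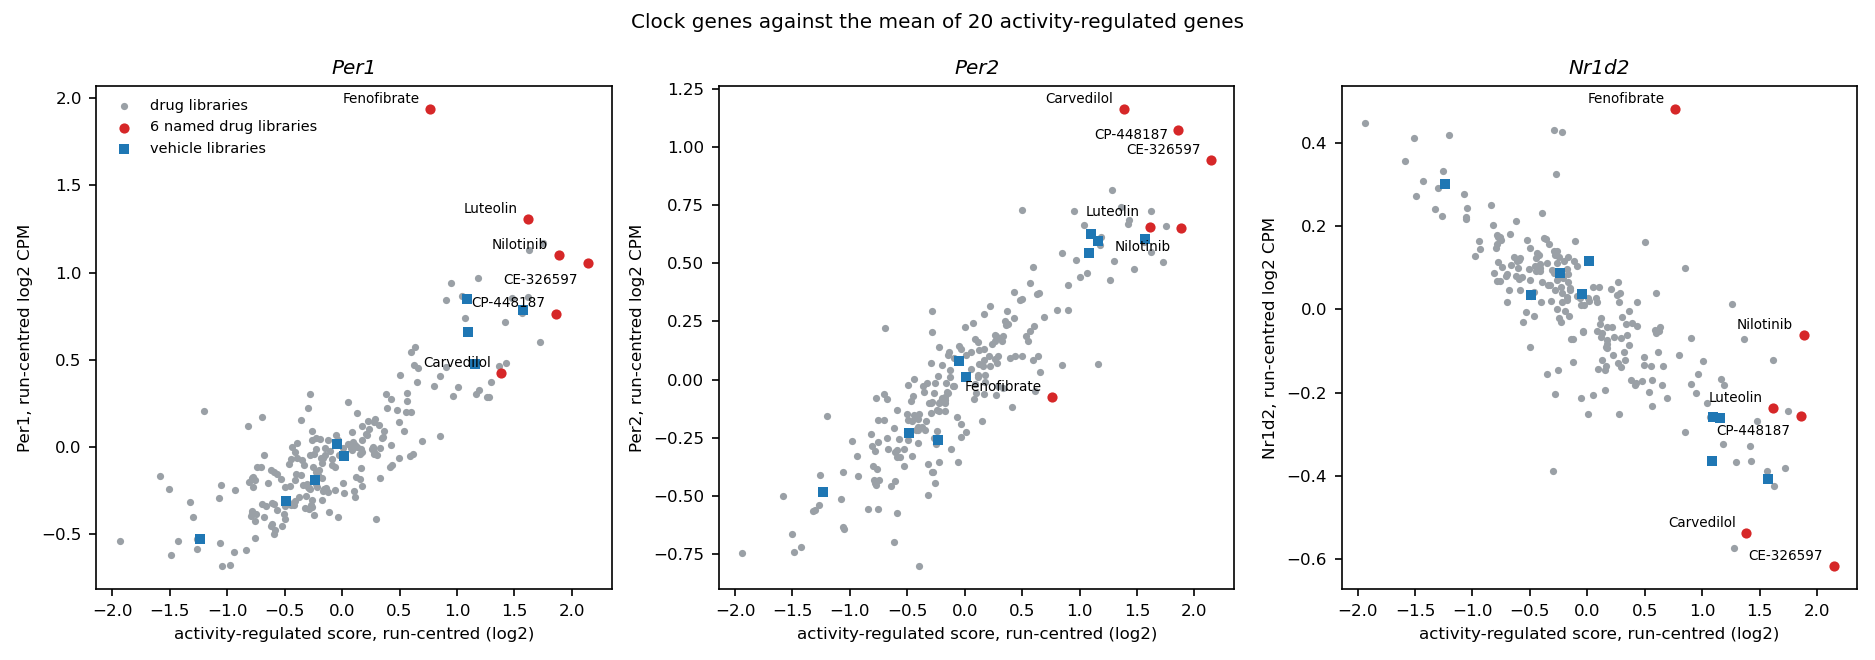
Run-centred log2 CPM of Per1, Per2 and Nr1d2 against the run-centred mean of 20 activity-regulated genes in all libraries; grey points are drug libraries, red points the named ones and blue squares vehicle libraries. Per1 and Per2 rise and Nr1d2 falls along the axis, vehicles spread over most of it, and Fenofibrate lies above the cloud for Per1 and Nr1d2.

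The genes most like each member, out of 13024 with a mean of 1 CPM or more, were found by run-centred r over all libraries. For Per1 they were Dusp1 (0.93), itself in the activity-regulated list, Errfi1 (0.90) and Nfil3 (0.90). For Per2 they were Gpr3 (0.91), Spred2 (0.91) and Dusp6 (0.91), for Cry1 Nfil3 (0.85), Stk40 (0.83) and Gmeb2 (0.83), and for Cry2 Slc6a6 (0.92), Gramd1a (0.90) and Klf5 (0.90). Ciart was closest to Ndrg1 (0.87), Rlf (0.87) and Bsg (0.87), and Nr1d2 to Klhl24 (0.88), Tcp11l2 (0.82) and Calcoco1 (0.82). Klhl24 was also the gene most opposed to Per2 (-0.86). The other members had looser neighbours. Nr1d1 was closest to Bhlhe41 (0.67), Jmy (0.62) and Ltbp3 (0.57), Arntl to Snx18 (0.66), Rhoq (0.65) and Eprs (0.65), Dbp to Cdc42ep4 (0.60), Wdr19 (0.59) and Btbd17 (0.57), and Per3 to Lrrc75b (0.58), Ralgps1 (0.56) and Tctn1 (0.56).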

How the data were processed

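RNA from 218 drug cultures and 9 vehicle cultures was sequenced from stranded mRNA libraries. The submitters' processing notes name STAR 2.4.0, Subread 1.4.6, edgeR 3.10.5 and limma for mm10, without saying what each did. The count table the authors deposited gives whole reads for each gene and was tested here. Their deposited RPKM table served to compare levels between genes. Groups come from the agent in the labels, and run and lane codes from the column names. R 4.3.3 and edgeR 4.0.16 were used, with TMM scaling, filterByExpr, quasi-likelihood F tests and Benjamini-Hochberg adjustment over all genes tested of a comparison (threshold 0.05). CPM uses the TMM-scaled totals, and log2 CPM a prior count of 1. The error of a single library comes from the spread of the vehicles or, within run codes, of all 227 libraries. In the 5 classes, drugs count as replicates, although they differ in compound and run code. The methods were tested on simulated data. Alternatives were RLE scaling, no filter, DESeq2 1.42.0, limma 3.58.1, lane code as block, each vehicle or class drug left out, and a prior count of 5. The members, classes and lists were chosen with earlier results of these data known. Named were the members, drugs with a call, the 3 highest and lowest drugs of a member, the 3 most alike genes, and other clock genes called in those drugs or classes. Part of these names is reported here, and 1 of the other clock genes is not reported here. The most opposed gene, the lane-mates and the activity relation were added after the data had been seen.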

Additional observations from a re-analysis of the deposited data

Results flagged for a closer look

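Among the 5 fibrates, 5 gene values stood apart by Dixon's test, which asks whether the gap from the most extreme sample to its neighbour exceeds 0.71 of the whole range of 5 samples. Of the 5, 4 were high values of Fenofibrate. Per1 was at 378 CPM with Fenofibrate and the next fibrate at 139.1 CPM, a gap of 0.811 of the range. Cry1 was at 61.5 CPM with the next at 26.7 CPM (0.885), Nr1d1 at 216 CPM with the next at 105.2 CPM (0.722), and Ciart at 33.6 CPM with the next at 7.71 CPM (0.962). The fifth was a low Per2 of 18.01 CPM with Ciprofibrate, with the next fibrate at 30.3 CPM (0.777). This Per2 value was also below the other libraries of its run code and lane code, and was not called within the run code (edgeR, adjusted p = 0.203), but passed with the lane code as block (-1.27 ± 0.37, adjusted p = 0.0196). In all 30 sets of samples were examined, from the benzodiazepines, the fibrates and the vehicles for each of 10 genes, and chance sets apart about 1 in 20. These are CPM values that were not adjusted for run code, although the fibrates came from 3 run codes. As log2 CPM minus the run-code median, Fenofibrate stood at 2.04 for Per1, 1.398 for Cry1, 1.41 for Nr1d1 and 2.31 for Ciart, and the other fibrates at no more than 0.68, 0.27, 0.47 and 0.23. Ciprofibrate stood at -0.75 for Per2 and the other fibrates at -0.02 to 0.15.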

How the results depend on the processing

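Against vehicle, 6 member calls in edgeR stood beside 14 in DESeq2 (all 6 shared), and 5 to 7 when a vehicle was left out. With limma and a run-code term there were 17, a setting that changes the tool and the reference together. Within run codes, 18 calls stood beside 18 with RLE scaling, 17 in limma (16 shared), 14 without a filter (14 shared), 20 with the lane code as block (12 shared) and 26 when libraries with over 1000 calls were kept out of the reference (18 shared), an alternative added after seeing the data. For the thyroid hormones, 1 member in edgeR became 2 in DESeq2, 3 with a run-code term and 0 to 2 with a library left out. For the benzodiazepines, 1 became 0 without a filter, 3 in DESeq2, 4 with a run-code term and 0 to 2 with a library left out. For the fibrates, 0 became 4 with a run-code term. The causes were not tested. For most of these settings the share of all genes called is not given here. A change in the member count therefore cannot be read as particular to clock genes. Of the correlated pairs, 37 became 33 when centred on run and lane code, 38 with a prior count of 5 and 36 without the drugs with calls. Over the single gene results and their alternatives, 30 lost their side of the threshold, the rest kept it and none changed direction. No paired analysis was possible because each drug has 1 library and the vehicle numbers pair nothing.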
